A study of Rattus norvegicus with 26 samples.

Results

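A stretch of rat chromosome 17 holds 41 short, mostly single-exon features, 33 of them with lengths typical of histone genes, and their RNA was measured in hepatocytes before transplantation and in liver tissue after it. The 41 members were taken from the 32552 deposited features by place and shape. Each starts at or after 43500000 and ends at or before 44900000, is 250 to 1000 nt long, has at most 2 exon intervals and has at least 1 count in 1 of the 26 libraries. The window was proposed because runs of neighbouring features there had been called higher in LAP+/OC2+ than in LAP+/OC2- fetal cells. Every value of that contrast, and of contrasts that reuse either of its groups, is therefore given as a description and not used as a test. Positions are as deposited, and their genome build is not named in the labels or headers.

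The libraries fall into 6 groups of rat liver samples. Before transplantation, adult hepatocytes gave 4 libraries, and immunopurified fetal hepatocytes gave 4 each of the sorts labelled LAP+, LAP+/OC2- and LAP+/OC2+. After transplantation of fetal cells into adult liver, laser capture gave 5 libraries of fetal-derived colonies and 5 of the surrounding adult host tissue, from the same animals (242, 243, 246, 248 and 249). No genotype, strain, sex or age is given beyond fetal or adult stage, the sort markers are not spelled out, and the choice of captured regions is not described. Replicates are called biological, with no statement that fetal libraries came from separate litters, so p-values measure the spread between these samples.

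Histones are the proteins around which DNA is wound. An octamer of H2A, H2B, H3 and H4 forms the core of each nucleosome, and H1 binds the linker DNA. Most genes for these proteins sit in clusters, lack introns and are expressed as a cell copies its DNA, and their mRNAs end in a stem-loop in place of a poly(A) tail. In the liver, fetal hepatoblasts divide, while most adult hepatocytes rest.

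The shape of most members matched the histone label, since their lengths repeated. Of the 41, 29 single-exon members shared just 4 lengths, with 6 of 312 nt, 5 of 381 nt, 8 of 393 nt and 10 of 411 nt. These are the textbook coding lengths, stop codon included, of H4, H2B, H2A and H3, respectively, but a length does not name a gene, and the members are called by length here. In all files 86 single-exon features had 1 of these 4 lengths, and 29 of them lay in the window. A further 4 single-exon members of 639, 660, 663 and 669 nt were in the range of linker histone H1. The other 8 members had other lengths. Lengths were a multiple of 3 in 37 of 41 members. The identifiers could not be paired with symbols for any member, and neither histone genes nor hepatocyte or cell-cycle markers could be looked up by name. The RefSeq table used here, on assembly GRCr8, lists 57 histone symbols matched by name pattern, 41 of them on chromosome 17. By class these are 6 of H4, 14 of H2B, 13 of H2A, 3 of H3 and 5 of H1, pseudogenes included, counts that differ from those of the members at the matching lengths.

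Members are numbered 1 to 41 by their start. They lay in 3 blocks separated by gaps of more than 100000 nt, with 21 members between 43614101 and 43821536, 4 between 44519860 and 44528511, and 16 between 44737950 and 44853430. On the strands, 22 lay on the minus and 19 on the plus strand. Neighbours pointing away from each other occurred as 5 pairs with gaps of 293 to 323 nt, each joining a member of 381 nt with one of 393 nt or, in 1 pair, of 387 nt. Such head-to-head pairs of H2A and H2B genes are a textbook feature of histone clusters. Inside 7 of the 8 members of 393 nt lay a short feature on the other strand, of 137 or 138 nt, with 0 counts in all libraries. A 1035-nt feature on the other strand spanned members 31 to 34. How reads over such pairs were assigned is not known, since the strand setting of the counting is not stated.

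The rule cut close to other features. The window held 81 features, of which 14 were longer, 14 shorter, 4 had more than 2 exon intervals and 8 had no count. Just outside lay a feature of 249 nt at 43621349 with 88 counts in all libraries, and features of 599, 378 and 339 nt with 3 intervals and 710, 413 and 38 counts. The 599-nt feature at 43779174 averaged 0.23 CPM in adult, 1.52 CPM in LAP+ and 6.52 CPM in LAP+/OC2+ cells. Just inside lay member 18 (309 nt, 2 intervals), the shortest, with 10 counts in all, and member 41 (942 nt), the last, with 16. Member 18 had no count before transplantation. Member 1 (744 nt), the first, had 0 counts in every adult library and 1 to 11 in the LAP+/OC2+ libraries. The longest member, number 12 (949 nt, 2 intervals), is described below with the values of its group.

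Library totals ran from 7871347 to 16874438 counts, and CPM here are counts scaled to the library's total, adjusted by TMM (trimmed mean of M values) within each stage. On that scale 0 counts allow a level of up to 3 counts, which is 0.329 to 0.702 CPM in the LAP+/OC2+ libraries and 0.138 to 0.327 CPM in the others (counting error only). The members together took 715 to 5135 counts in a library, and 10 of 41 had a count in every library. A pair of library features moved with these groups. In LAP+/OC2+ cells mitochondrial features took 62.2 ± 17.9% (SD, n = 4) of counts, which left 1917734 to 5045098 nuclear counts, against 5.04 ± 0.98% in LAP+, 4.94 ± 0.70% in LAP+/OC2- and 7.73 ± 2.05% in adult cells. In host tissue of animal 248, 15 of 41 members had a count, against 36 to 38 in the other hosts, and 19581 of all features were detected against 25648 to 27547. Library kits differ between the stages, so levels before and after transplantation cannot be compared.

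Members of the 4 shared lengths were scarce in adult hepatocytes, higher in fetal LAP+ cells and highest in LAP+/OC2+ cells. Their summed level was 7.25 ± 1.33 CPM in adult cells (SD, n = 4), with libraries at 5.75 to 8.55 CPM. In LAP+ cells it was 33.5 ± 13 CPM, with libraries at 19.6 to 50.2 CPM. LAP+/OC2- cells gave 42.4 ± 9.38 CPM and LAP+/OC2+ cells 123 ± 34.9 CPM, with libraries at 81.4 to 158 CPM. The adult libraries lay below every fetal library, LAP+ and LAP+/OC2- overlapped, and LAP+/OC2+ lay above both. Member 14 carried much of the sum. Without it the adult libraries summed to 6.28 ± 1.24 CPM and the LAP+ libraries to 17.5 ± 5.24 CPM. The 2 other sorts then held 23.7 ± 4.31 CPM (LAP+/OC2-) and 89.6 ± 22.2 CPM (LAP+/OC2+).

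**Figure D1:**
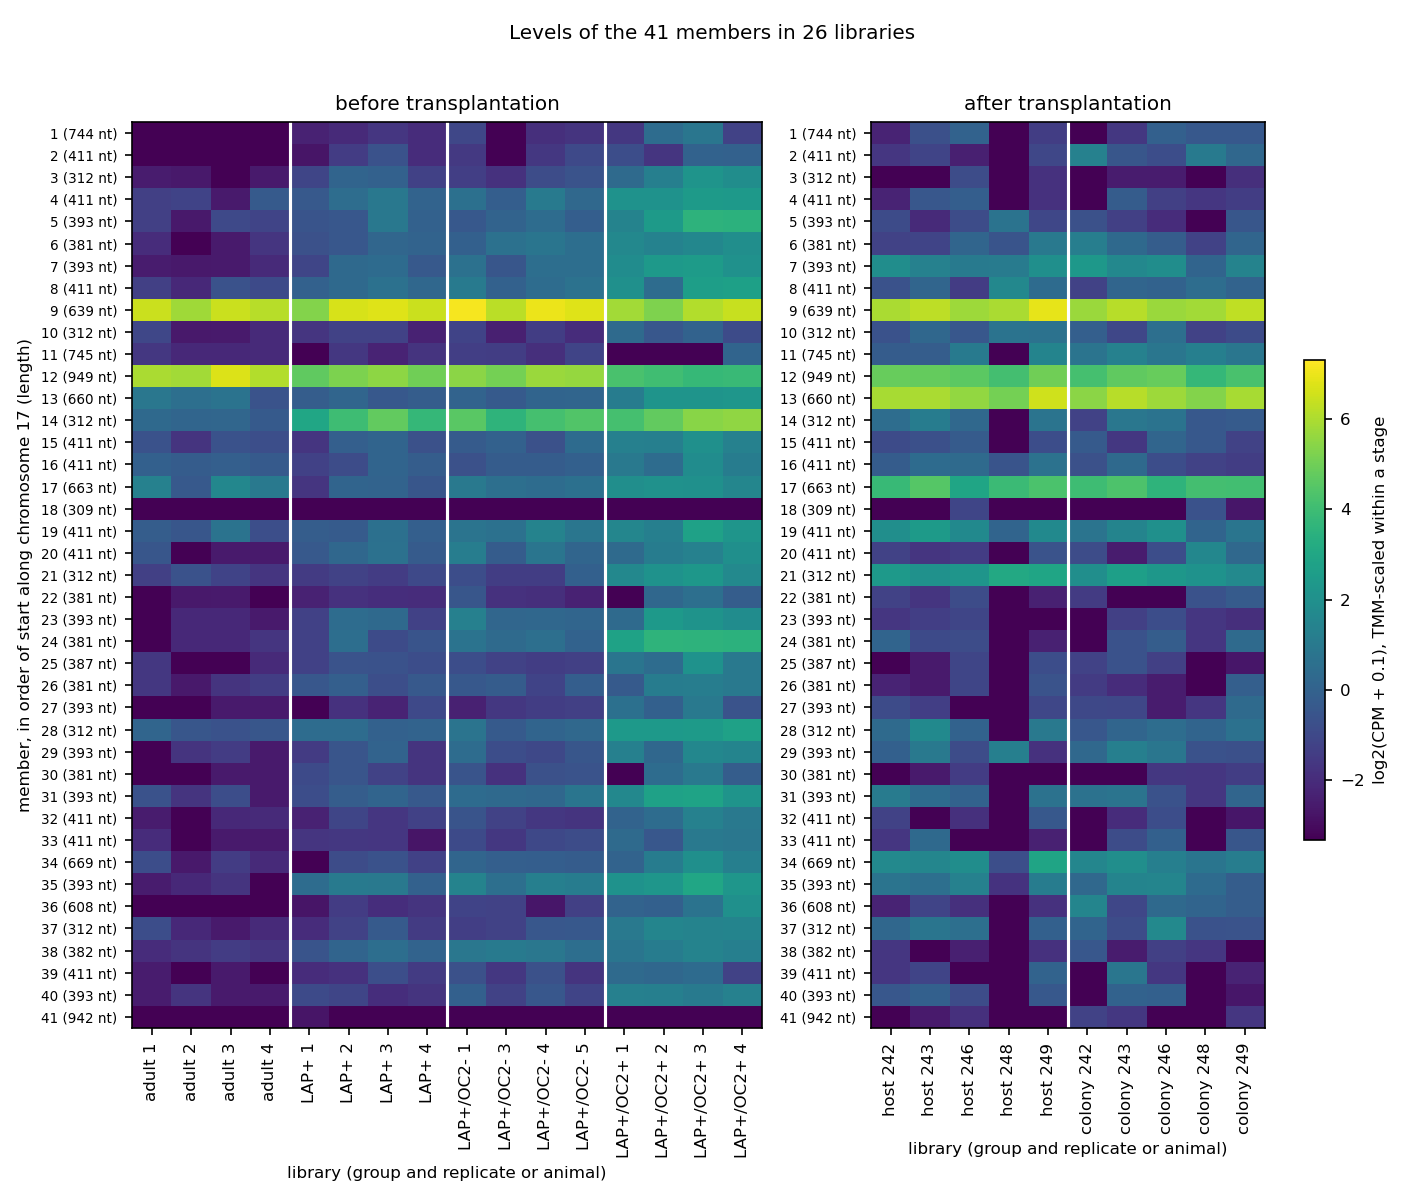
Level of each of the 41 members (rows, in order along the chromosome, with length) in each library (columns), as log2(CPM + 0.1), with white lines between groups and separate scaling before and after transplantation. Members 9 and 12 are bright in every library, member 13 in the libraries after transplantation, and most other rows are darkest in adult cells and brightest in LAP+/OC2+ cells; the host library of animal 248 has a count for 15 members.

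By length the order of group means was the same for each of the 4 classes. The 6 members of 312 nt (the length of H4) summed to 2.44 ± 0.68, 18.6 ± 8.41, 21.4 ± 5.99 and 49.1 ± 15.9 CPM, in the order adult, LAP+, LAP+/OC2- and LAP+/OC2+. For the 5 of 381 nt (H2B) the sums were 0.49 ± 0.21, 2.64 ± 0.67, 3.94 ± 0.26 and 16.8 ± 4.27 CPM in the same order. The 8 members of 393 nt (H2A) gave 1.16 ± 0.38, 5.75 ± 2.2, 8.27 ± 1.81 and 32.1 ± 9.19 CPM, and the 10 of 411 nt (H3) gave 3.17 ± 0.84, 6.48 ± 2.35, 8.83 ± 1.81 and 25.1 ± 8.19 CPM. Of the 40 members with a count before transplantation, 36 had their highest group mean in LAP+/OC2+ cells, including all 29 of the shared lengths. The window was proposed from features higher in LAP+/OC2+ than in LAP+/OC2- cells, so this count is bound up with that choice. The share over all features was not computed.

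The summed level of the 4 members of 639 to 669 nt (the size range of H1) did not follow that order. Over the same groups it was 78.9 ± 16.9, 86.4 ± 31.6, 116 ± 29.7 and 71.5 ± 20.5 CPM, and the ranges of all 4 groups overlapped. Member 9 made up most of this. The other 3 each had their highest mean in LAP+/OC2+ cells, at 3.92 CPM for member 13, 3.64 CPM for member 17 and 2.29 CPM for member 34. Over all 41 members the sums were 160 ± 37.4 CPM for adult and 157 ± 51.5 CPM for LAP+ libraries, a difference smaller than the spread within either group.

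**Figure D2:**
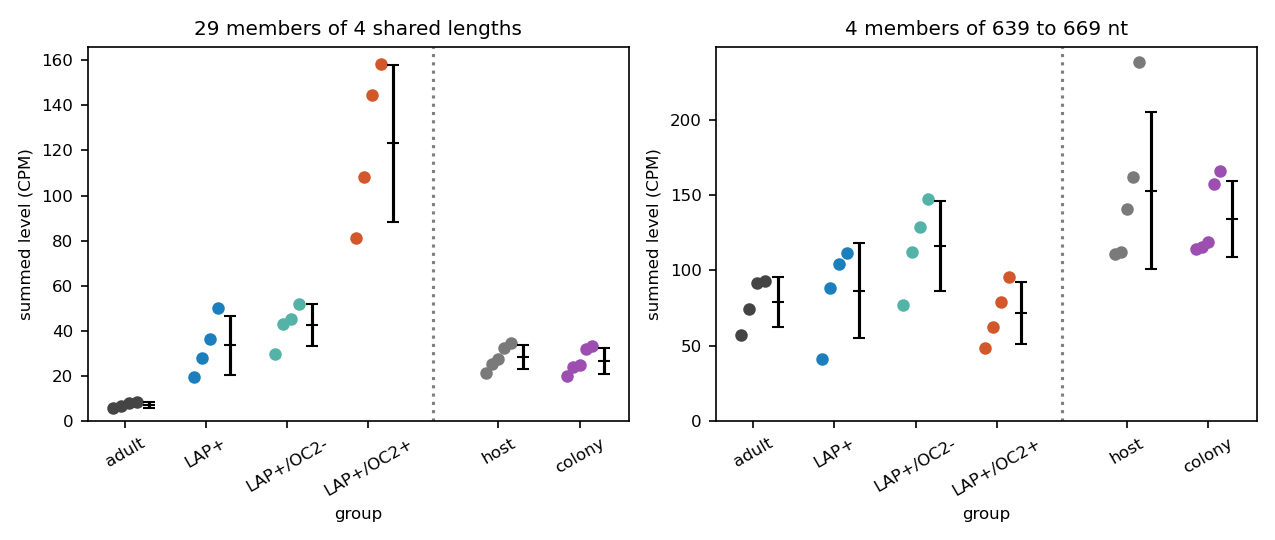
Summed level in CPM (y axis, linear) of the 29 members of 4 shared lengths (left) and the 4 members of 639 to 669 nt (right), with 1 point per library and mean ± SD beside it, n = 4 before and 5 after transplantation. The dotted line parts the stages, which were scaled separately; on the left the LAP+/OC2+ libraries sit at 81.4 to 158 CPM and the adult libraries at 5.75 to 8.55 CPM, while on the right the groups before transplantation overlap.

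Whether fetal LAP+ cells differ from adult hepatocytes was tested, since neither group is in the contrast that pointed to the window. Of the 41 members 30 passed the low-count filter, 18 of them were higher in LAP+ cells and 2 lower by edgeR's quasi-likelihood test, with p-values adjusted over all features tested and a threshold of 0.05. Among all 13818 features tested 31.7% were higher and 28.5% lower. The median log2 difference was 1.70 over the 30 members and 0.06 over all features tested. Outside the window, 453 features of the same length range and exon number were tested, 160 were higher and 80 lower, and their median was 0.38. The filter looks at all 16 libraries. A member can pass it through its fetal libraries alone, including the OC2 sorts whose contrast pointed to the window. The set tested is therefore bound up with that choice, and these counts do not speak for the 11 members left out. With no filter, 40 members entered, 20 were higher and 2 lower. With the 8 adult and LAP+ libraries alone, only 14 members passed the filter, 7 were higher and 2 lower, with a median of 1.19. The shares of all features called in these other fits are not given here, so their counts cannot be set against the 31.7% and 28.5% above. Without a model, every LAP+ library lay above every adult library for 19 of the 41 members (14.7% of all features with a count) and below for 1 (13.1%).

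Of the 18 higher calls, 16 were members of the 4 core lengths, which made up 23 of the 30 tested members. The other 2 were members 25 (387 nt) and 38 (382 nt), with log2 differences of 2.30 and 2.12. By length the higher calls were 7 of 7 tested members of 393 nt, with differences from 1.17 to 3.71, and 4 of 4 of 381 nt, from 1.72 to 3.19. At 411 nt they were 3 of 7 tested members and at 312 nt 2 of 5. Of the 4 of 639 to 669 nt, 0 were higher and 1 was lower. The members tested passed a filter that the OC2 sorts helped to set, so these shares are not results for whole length classes. Counted without the filter, every LAP+ library lay above every adult library for 5 of 5 members of 381 nt, 4 of 8 of 393 nt, 4 of 10 of 411 nt, 2 of 6 of 312 nt and 0 of 4 of 639 to 669 nt. Among all features with a count this held for 14.7%. In bulk RNA, fewer cells that express a gene and less RNA per cell cannot be told apart, and the share of cells copying DNA was not measured here.

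**Figure D3:**
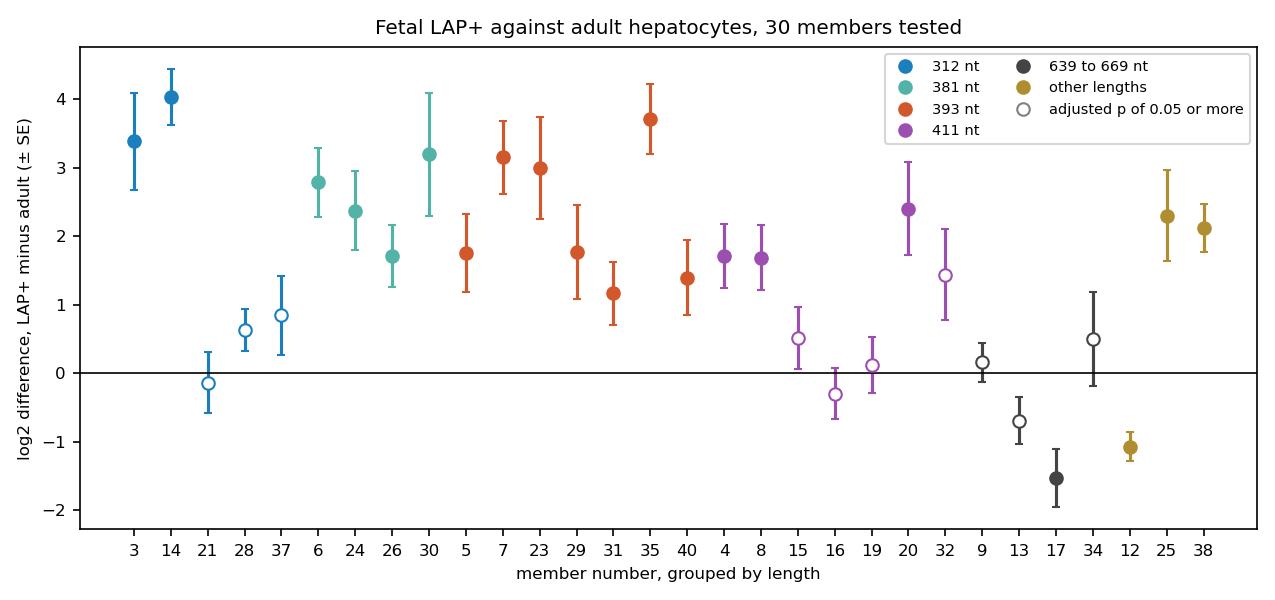
Fitted log2 difference, LAP+ minus adult (y axis, points, with ± SE), of the 30 members that passed the filter (x axis, by member number and grouped by length, in colour), with open points for an adjusted p of 0.05 or more. The tested members of 381 and 393 nt lie above 0, from 1.17 to 3.71, while those of 639 to 669 nt lie on both sides of 0.

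The largest difference was at member 14 (ENSRNOG00000051891, chr17:43770250-43770561, minus strand, 312 nt, 1 exon). Its adult libraries held 1.16, 1.01, 1.02 and 0.694 CPM, from 10 to 15 counts each. The LAP+ libraries 1 to 4 held 7.64, 16.1, 26.7 and 13.4 CPM, the LAP+/OC2- libraries 11.8 to 23.9 CPM, and the LAP+/OC2+ libraries 17.8, 26.8, 42.7 and 47.0 CPM. Every fetal library was above every adult one, and the LAP+ libraries spread over a wide range. LAP+ exceeded adult cells 16.3-fold (log2 difference 4.03 ± 0.41 SE, edgeR adjusted p = 3.8e-07). Per length it ranked second by the mean over the 6 groups, a mean that mixes both stages and rests here on fetal levels. It was at 3.11 CPM per kb in adult, 51.2 in LAP+ and 107.5 in LAP+/OC2+ cells. In fetal cells it stood far above every other member of its length.

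Member 35 (ENSRNOG00000059748, chr17:44794130-44794522, plus strand, 393 nt) rose next most. Adult libraries held 1, 2, 3 and 0 counts, or 0.0771, 0.135, 0.204 and 0 CPM. LAP+ libraries held 1.26, 1.93, 1.86 and 0.877 CPM from 17 to 42 counts, and LAP+/OC2+ libraries held 4.21, 4.64, 7.80 and 4.72 CPM. The groups did not overlap, and the fitted log2 difference of LAP+ from adult was 3.71 ± 0.51 (edgeR adjusted p = 9.2e-06), with an adult level resting on few counts.

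Lower in LAP+ cells were members 17 and 12. Member 17 (ENSRNOG00000048264, chr17:43797721-43798383, minus strand, 663 nt) held 2.47, 0.677, 2.93 and 1.87 CPM in the adult libraries and 0.209, 0.964, 0.932 and 0.619 CPM in the LAP+ libraries. Adult library 2 fell within the LAP+ range, and the fitted difference was -1.53 ± 0.42 (edgeR adjusted p = 0.0050). LAP+/OC2+ cells held 2.85 to 4.01 CPM of it, above all LAP+ libraries.

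Member 12 (ENSRNOG00000021198, chr17:43679925-43689311, minus strand, 949 nt in 2 exons) has neither the length nor the single exon of a core histone gene. Its adult libraries held 61.1, 56.9, 108 and 66.6 CPM, and the LAP+ libraries 26.3, 36.7, 44.7 and 32.3 CPM. LAP+/OC2- libraries held 34.1 to 51.8 CPM and LAP+/OC2+ libraries 13.8 to 18.7 CPM. Here alone among the 41 did every LAP+ library lie below every adult one (log2 difference -1.07 ± 0.21, edgeR adjusted p = 3.2e-04). The span of member 12 overlaps that of a 1290-nt feature on the other strand, which averaged 28.3 CPM in adult, 10.3 CPM in LAP+ and 6.40 CPM in LAP+/OC2+ cells. The reads of this pair cannot be told apart where they overlap.

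**Figure D4:**
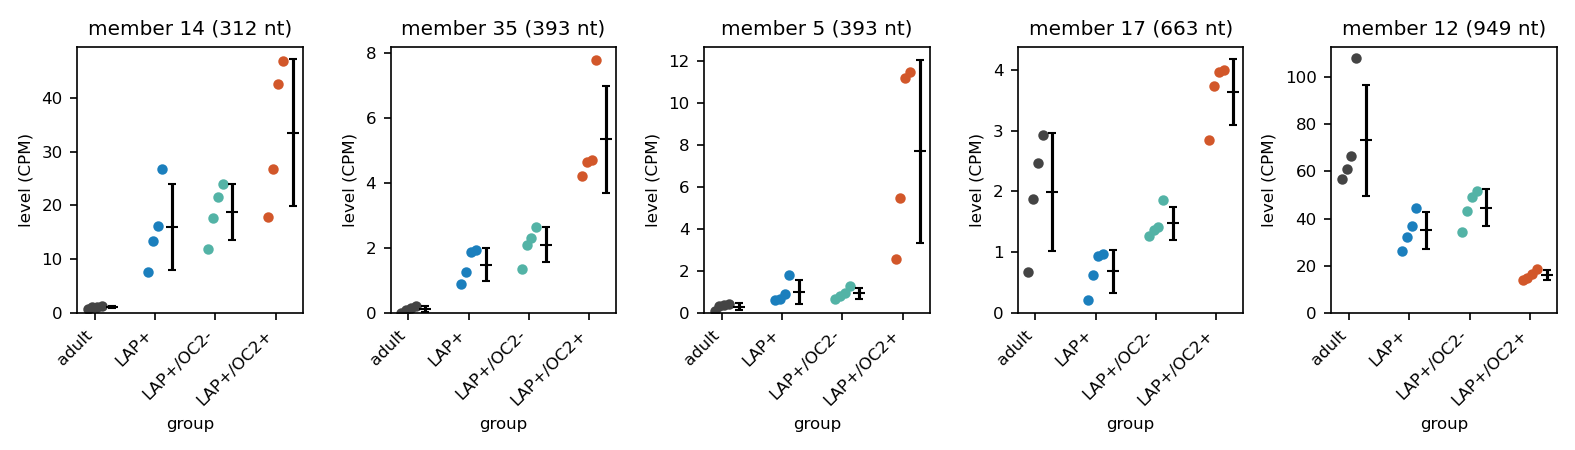
Level in CPM (y axes, linear, each with its own range) of members 14, 35, 5, 17 and 12 in the 16 libraries before transplantation, with 1 point per library and mean ± SD (n = 4) beside it. Members 14, 35 and 5 are lowest in adult cells and highest in LAP+/OC2+ cells, member 17 is lowest in LAP+ cells, and member 12 is highest in adult cells.

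Of the most abundant members, some passed no test between LAP+ and adult cells. Member 9 (639 nt, chr17:43639749-43640387) was the most abundant per length by the mean over the 6 groups, at 118 CPM per kb in adult and 132 in LAP+ cells. Its adult libraries held 86.8, 54.9, 88.0 and 71.7 CPM, and its LAP+ libraries 40.3, 102, 110 and 86.7 CPM. The groups overlapped, and the log2 difference was 0.16 ± 0.28 (edgeR adjusted p = 0.64). Member 13 (660 nt, chr17:43734461-43735120) was at 1.77, 1.35, 1.57 and 0.555 CPM in adult and 0.785, 1.01, 0.658 and 0.774 CPM in LAP+ cells, with a log2 difference of -0.69 ± 0.34 (edgeR adjusted p = 0.089). Without adult library 4, whose value lay below every LAP+ library, the difference was -0.94 (adjusted p = 0.014, range 0.014 to 0.23 over 23 alternatives). Member 21 (312 nt, chr17:43821225-43821536) was at 0.308, 0.541, 0.340 and 0.208 CPM in adult and 0.262 to 0.413 CPM in LAP+ cells, with a difference of -0.14 ± 0.44 (edgeR adjusted p = 0.80). Unlike member 14 of the same length, it had overlapping LAP+ and adult ranges.

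The contrast that pointed to the window, LAP+/OC2+ against LAP+/OC2-, is given as a description. Here 28 of the 30 tested members had a fitted difference above 0, where 45.2% of all features did. The window was proposed from this contrast, so such an excess is bound up with that choice and tests nothing. The median log2 difference was 1.85 over the members and -0.18 over all features. Over the 13 other features of the window that were tested it was 1.20, with 61.5% above 0. Every LAP+/OC2+ library lay above every LAP+/OC2- library for 22 of 41 members (12.9% of all features). The members with the largest differences were 5, 24, 3 and 21, and those with the smallest were 9 and 12.

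Member 5 (393 nt, chr17:43627237-43627629) held 0.669 to 1.26 CPM in LAP+/OC2- and 2.57, 5.48, 11.5 and 11.2 CPM in LAP+/OC2+ cells, a log2 difference of 3.22 ± 0.46. In adult cells it was at 0.308, 0.0677, 0.408 and 0.347 CPM, and in LAP+ cells at 0.575, 0.642, 1.81 and 0.877 CPM. LAP+ exceeded adult cells by 1.75 ± 0.57 (edgeR adjusted p = 0.014), a call that was lost without LAP+ library 3 (adjusted p = 0.063, range 0.0052 to 0.063 over 23 alternatives). Member 24 (381 nt, chr17:44527421-44527801) held 0.912 to 1.53 CPM in LAP+/OC2- and 6.78, 11.8, 11.6 and 11.1 CPM in LAP+/OC2+ cells, a difference of 3.19 ± 0.38. Member 3 (312 nt, chr17:43617247-43617558) held 0.187 to 0.557 CPM in LAP+/OC2- and 1.17, 2.32, 4.43 and 3.62 CPM in LAP+/OC2+ cells. Its adult libraries held 1, 1, 0 and 1 counts. For each of these members the LAP+/OC2+ libraries lay above all LAP+/OC2- libraries.

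Member 21 shows a split among the fetal sorts. It held 0.28 to 0.861 CPM in LAP+/OC2- and 3.04, 4.22, 4.89 and 3.07 CPM in LAP+/OC2+ cells, a log2 difference of 3.12 ± 0.37, although its LAP+ and adult ranges overlapped. Member 9 went the other way, with 74.2 to 143 CPM in LAP+/OC2- and 37.7 to 85.8 CPM in LAP+/OC2+ cells, which overlap (difference -0.74 ± 0.29). Member 12 differed by -1.35 ± 0.22. The mitochondrial share given above moved with this contrast. With the mitochondrial features removed before scaling, the median difference was 1.85 over 36 members, which are not the same set as the 30 tested with them. The removal leaves the lower nuclear counts of the LAP+/OC2+ libraries, given above, as they were. What the mitochondrial share reflects was not tested.

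Contrasts that share these libraries gave side by side values. Each reuses a group of the contrast that pointed to the window, so its counts are a description and test nothing. Against LAP+ cells, LAP+/OC2+ cells had 28 of 30 members past the threshold as higher and 1 lower (32% and 35.9% of all features), with a median of 2.35. Against adult cells 28 were higher and 1 lower (38.9% and 38.6%), with a median of 3.89. LAP+/OC2- against adult gave 21 higher and 1 lower (30.9% and 28.4%), with a median of 1.90. LAP+/OC2- against LAP+ gave 0 past the edgeR threshold in either direction (0.391% of all features) and 8 of 30 at an unadjusted p under 0.05 (6.62% of all features), with a median of 0.43. In that contrast 26 of 30 fitted differences were above 0 (50.5% of all features), and for 6 of 41 members every LAP+/OC2- library lay above every LAP+ library (1.06% of all features).

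By group means, and without a test, the 2 members of the head-to-head pairs differed in level. Per kb, members 24 and 25 held 27.1 and 5.75 CPM in LAP+/OC2+ cells, and members 5 and 6 held 19.5 and 8.01. In the pair of members 22 and 23 the order was turned, with 2.10 and 8.92. Members 26 and 27 held 4.47 and 2.95, and members 29 and 30 held 5.68 and 2.54. Members 22 and 30 had 0 counts in LAP+/OC2+ library 1. In adult cells all 10 lay between 0.09 and 0.72 CPM per kb. Adult values rest on few counts, as for member 22 with 2 counts over the 4 libraries.

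After transplantation the question is whether colonies grown from fetal cells keep a difference from the host tissue around them. For the members no difference passed the test, but few of all features passed it either, so this does not set the members apart. Of 41 members 28 passed the filter and 0 were called by edgeR with the animal as a block (1.17% of 22303 features, 0.565% higher and 0.61% lower), or by DESeq2. At an unadjusted p under 0.05 there were 2, or 7.14% of the 28, against 19.0% of all features tested. The median log2 difference was 0.03 over the members, 0.11 over all features and 0.77 over 2628 features of the same length range and exon number elsewhere. The members' median was below 0 in 5 of 12 alternatives, which ran from -0.18 (without animal 248) to 0.15, and 0 members were called with any 1 animal left out. The sum over the shared lengths was 28.2 ± 5.37 CPM in host (SD, n = 5) and 26.7 ± 5.71 CPM in colony tissue, with ranges that overlapped, at 21.2 to 34.4 and 19.7 to 33.2 CPM. The sums for 639 to 669 nt were 153 ± 52.3 and 134 ± 25.2 CPM. Animals did not share a direction, with 15, 24, 25, 23 and 16 of 41 members higher in the colony and 23, 16, 16, 10 and 25 lower in animals 242, 243, 246, 248 and 249. In animal 248 the host library had a count for 15 members and its colony for 32, so many of its host values were 0. The shares over all features were not computed by animal.

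Members 2 and 36 were the 2 at an unadjusted p under 0.05 and were chosen for description after their values were seen. Member 2 (411 nt, chr17:43616247-43616657) held 0.216, 0.358, 0.0906, 0 and 0.378 CPM in host tissue of animals 242, 243, 246, 248 and 249, and 2.46, 0.611, 0.462, 1.96 and 1.05 CPM in their colonies. The host values rest on 0 to 5 counts. The log2 difference was 2.52 ± 1.01 (edgeR adjusted p = 0.17). Member 36 (608 nt, 2 exons, chr17:44800130-44801688) held 0.108, 0.358, 0.181, 0 and 0.189 CPM in host and 2.72, 0.382, 1.15, 0.981 and 0.777 CPM in colony tissue, with a difference of 2.66 ± 1.07 (edgeR adjusted p = 0.17). Both were higher in the colony of all 5 animals, which held for 2 of 41 members and 7.11% of all features. In animal 243 the difference was small for both. Before transplantation neither had a count in an adult library. Lower in the colony of all 5 animals were members 9 and 16, where 4.7% of all features were.

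**Figure D5:**
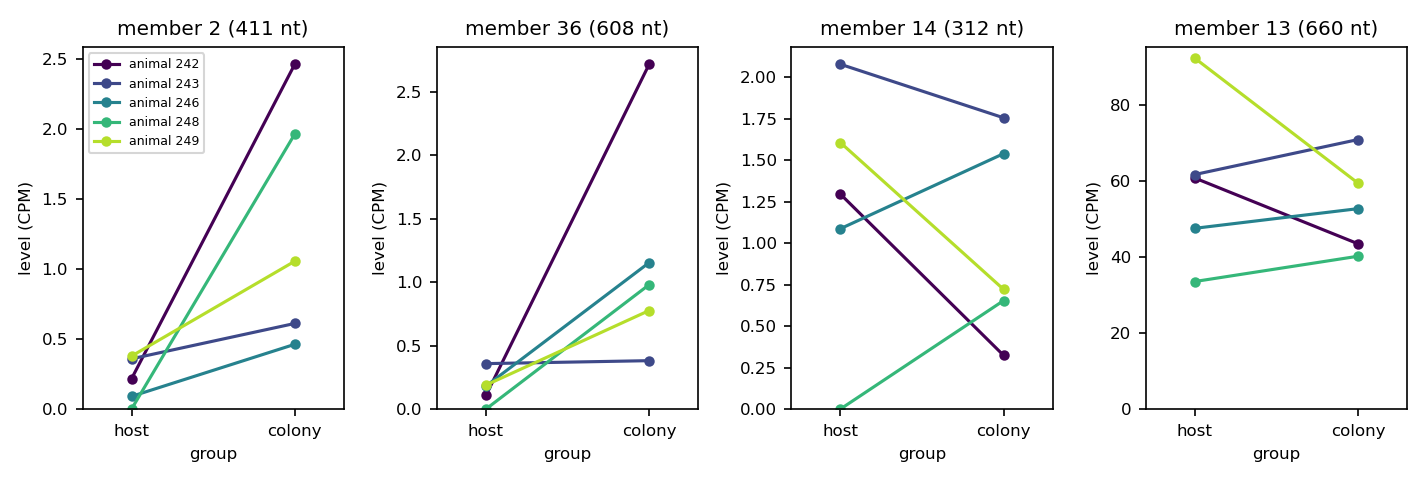
Level in CPM (y axes, linear, each with its own range) of members 2, 36, 14 and 13 in host and colony tissue, with a line for each of the 5 animals. Members 2 and 36 go up in every animal from host values of at most 0.378 CPM, while the lines of members 14 and 13 cross.

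The members that stood out before transplantation did not differ between colony and host by the test. Member 14 held 1.3, 2.08, 1.09, 0 and 1.61 CPM in host and 0.324, 1.76, 1.54, 0.654 and 0.722 CPM in colony tissue of the same 5 animals in order (log2 difference -0.11 ± 0.85, edgeR adjusted p = 0.95). Member 35 was at 1.62, 1.36, 2.45, 0.192 and 2.08 CPM in host and 1.10, 2.67, 2.77, 1.20 and 0.777 CPM in colony tissue (0.24 ± 0.64, edgeR adjusted p = 0.86). With errors of this size, a change of 2-fold in either direction lies within about 2 SE for both members, so these data do not show that levels were equal. Narrower errors were seen for the abundant members 9 (-0.20 ± 0.12), 13 (-0.08 ± 0.14), 17 (0.13 ± 0.17) and 12 (-0.31 ± 0.16), all with an edgeR adjusted p of 0.27 or more.

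The rank of the members within a stage was not the same after transplantation. Member 13 was at 89.7 CPM per kb in host and 80.9 in colony tissue, second only to member 9 at 116 and 97.0. Before transplantation it was between 1.22 and 5.94 CPM per kb. Member 17 was at 23.8 and 24.8 CPM per kb in host and colony and between 1.03 and 5.50 before, and member 14 was at 3.89 and 3.2 after transplantation. The stages differ in kit, material and capture, and what these orders reflect cannot be told apart from them.

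The difference between LAP+ and adult cells was set against the difference between colony and host in 1 fit over all 26 libraries. Of 39 members tested, 7 had the larger difference before transplantation and 1 the smaller (17.1% and 9.85% of 23459 features), a share of higher calls near that of all features. The median was 1.71 over the members and 0.02 over all features. The clearest case was member 14, where the difference before transplantation exceeded that after it by 4.51 ± 0.70 on the log2 scale (edgeR adjusted p = 3.3e-05). For member 35 the excess was 3.72 ± 0.77 (adjusted p = 4.3e-04) and for member 17 it was -1.47 ± 0.46 (adjusted p = 0.016). Without adult library 2, 5 members were called in all. Kit, material and capture differ between the stages, and whether they alter a difference on the log2 scale was not tested.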

How the data were processed

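RNA-seq counts of 26 rat libraries were used. The authors deposited raw featureCounts counts, next to exon positions and feature lengths, per the file headers. The submitters' processing notes name bcl2fastq 2.17 and Trimmomatic 0.36, and also STAR 2.5.2b and Subread 1.5.2. No source used here gives the build, annotation or strand setting. Near-identical histone copies can share or lose reads, so the split between members of equal length is uncertain. Per the labels' protocols, sorted cells went through the NEBNext Ultra kit and captured tissue through the SMARTer Stranded Pico kit.

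Tests used edgeR 4.0.16 in R 4.3.3, with TMM scaling, filterByExpr on the design and robust quasi-likelihood fits. P-values were adjusted by Benjamini-Hochberg across every feature tested, with a threshold of 0.05. The 16 libraries before transplantation shared 1 fit without a block, and the 10 after it had the animal as a block. Colony and host of 1 animal come from the same animal per the titles, and their deviations correlated at -0.21 to 0.29. The difference of differences was fitted on all 26 libraries and was added after the data were seen. The test was tried on simulated data with 200 features changed. Alternatives were RLE scaling, other filters, removal of mitochondrial features, DESeq2 1.42.0, other blocks and leaving out libraries.

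Members, length classes and the rule for named members were chosen with earlier results of these data known. Named were the 6 members most abundant per kb, the 2 called highest and 2 lowest in each tested contrast, the 4 largest and 2 smallest in the contrast of the OC2 sorts, and the edges of the rule. At most 2 identifiers in each direction are printed. Length classes are lengths shared by at least 3 members, since no protein was matched, and the planned marker lists could not be applied. Totals of 7871347 to 16874438 counts set the precision.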

Additional observations from a re-analysis of the deposited data

Results flagged for a closer look

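Single libraries stood apart from the rest of their group in 8 of 96 groups of values checked for the named members. The nominal rate is about 1 in 20. It need not hold where most values are 0 or 1 count, as for members 3, 18 and 41, so no excess is read from it. Member 3 was at 0 CPM in adult library 3, where the nearest other adult library held 0.0677 CPM, a difference of 1 count. Member 41 was at 0.0523 CPM in LAP+ library 1 and at 0 in the other LAP+ libraries. In LAP+/OC2+ library 1, member 13 was low at 2.10 CPM against 4.43 CPM in the nearest library, and member 24 was low at 6.78 CPM against 11.1 CPM. In LAP+/OC2+ library 3, member 35 was high at 7.80 CPM against 4.72 CPM. In host tissue of animal 248, the library with the fewest features detected, member 5 was high at 1.54 CPM against 0.453 CPM in the nearest host. Member 18 was at 0.362 CPM in the host of animal 246 and 0 in the other hosts, and at 0.545 CPM in the colony of animal 248 against 0.0555 CPM in the nearest colony.

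The difference of LAP+ from adult cells was unlike that of colony from host for 5 named members, by edgeR's test of the difference itself. On the log2 scale the excess before transplantation was 4.51 for member 14 (adjusted p = 3.3e-05), 3.72 for member 35 (adjusted p = 4.3e-04), 4.18 for member 3 (adjusted p = 0.023), 2.52 for member 5 (adjusted p = 0.046) and -1.47 for member 17 (adjusted p = 0.016). Over 17 alternatives the adjusted p stayed at 2.4e-04 or less for member 14 and at 0.0017 or less for member 35. The calls of members 3 and 17 were lost in 1 alternative each, without animal 246 (adjusted p = 0.24, range 0.012 to 0.24) and without adult library 3 (adjusted p = 0.061, range 0.0014 to 0.061). The call of member 5 was lost in 11 of 17, with adjusted p from 0.031 to 0.22, the highest without animal 248.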

How the results depend on the processing

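For LAP+ against adult, 18 members called with the stricter filter, 22 without one, 22 without mitochondrial features, 20 with RLE and 19 with DESeq2 compare with 20 here. The shares of all features called in these fits and those below are not given here. The counts therefore do not set the members apart from other features. With only the 8 adult and LAP+ libraries, 9 members were called and the median was 1.19, since 14 members passed the filter. Leaving out 1 library gave 17 to 20 calls and medians from 1.42 to 1.78. The numbers of LAP+ and adult libraries share no stated source, and their deviations correlated at -0.12 to 0.06. With the replicate number as a block, 14 of 24 tested members were called, and member 17 was not (adjusted p = 0.073, range 4.5e-04 to 0.073 over 23 alternatives). Without the replicate block of animals, colony against host gave 0 calls and a median of 0.09. Its medians ran from -0.18 to 0.15 with 1 animal left out, and were -0.04 with the stricter filter and with one by groups alone (added after the data were seen). The LAP+/OC2- against adult median ran from 1.69 (without adult library 2) to 2.11 (without adult library 3). For the difference of differences 5 to 9 members were called, lowest without adult library 2. Where not stated, the cause was not tested.

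Without mitochondrial features the summed CPM rose in all groups before transplantation, for the shared lengths to 9.81 in adult and 169 in LAP+/OC2+ cells. Depth limits the low members, since many adult values rest on 0 to 3 counts.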
